A study of Mus musculus with 4 samples.

Results

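The peaks described here are the m6A peaks whose summit fell in an exon of a long noncoding RNA (lncRNA) gene. N6-methyladenosine (m6A) is a methyl mark on adenosines of RNA. In m6A meRIP-seq, RNA is cut into fragments, those that carry the mark are pulled down with an antibody (IP), and they are sequenced beside unselected fragments (input). A summit was counted when it lay on an autosome, in exons of exactly 1 gene, and when GENCODE M21 gave that gene a noncoding type (lincRNA, antisense, processed_transcript, bidirectional_promoter_lncRNA, sense_intronic or sense_overlapping). This held for 379 of 15635 peaks in 312 genes in replicate 1 and for 347 of 14872 peaks in 285 genes in replicate 2. They were 2.49% of the autosomal peaks of replicate 1 (95% exact Clopper-Pearson interval 2.25 to 2.75) and 2.39% of those of replicate 2 (2.15 to 2.66). Each interval covers counting error only.

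The series has 4 samples, namely m6A IP replicates 1 and 2 and input replicates 1 and 2, and the authors' peak list of each IP replicate was analysed. All samples were foetal liver cells of C57BL/6 background, enriched for the stem and progenitor cell receptor Kit with magnetic beads. The labels give total RNA for the IP and polyA RNA for the input. Per the study's methods the cells were Ythdf2 CTL, the name given to Ythdf2 fl/fl mice without Cre, and the replicates were biological. This floxed allele makes a GFP-YTHDF2 fusion protein in place of the plain m6A reader, and the number of foetuses per sample and their age are not given in the sources used here. With 1 group of 2 IP samples there is no comparison between groups, and no test was run. Classes of peaks are therefore set side by side within each replicate. Peaks give no expression level, so the Kit label was not checked against marker genes, and no summit lay in an exon of Kit alone in either list.

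m6A is placed in the nucleus by the METTL3/METTL14 enzyme complex, mostly at the consensus DRACH, in which D stands for any base but C, R for a purine and H for any base but G. GGAC is its best-known core. Reader proteins with a YTH domain then bind the mark: YTHDC1 acts in the nucleus and YTHDF2 promotes decay of marked RNA in the cytoplasm. LncRNAs are transcribed and often spliced like mRNA but are annotated as not coding for a protein. Several that stay in the nucleus, among them Malat1, Neat1 and Xist, are long-known m6A carriers.

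The sequences around the strongest peaks are shown first, because the motif is the part of the finding that can be read directly. Each is read from the GRCm38 reference (RefSeq), 5′ to 3′ on the strand of the gene, and runs 50 nt to each side of the summit of replicate 1, which is base 51. Capitals mark every GGAC, or, where the window holds none, the DRACH site nearest to the summit. A GGAC on the opposite strand reads GTCC here and is left unmarked. The marked windows alone therefore show no preference for a strand. The first 12 windows belong to the genes whose peak pairs had the highest −log10 q in the weaker of the replicates.
C130036L24Rik, chr1:86372482-86372582, plus strand: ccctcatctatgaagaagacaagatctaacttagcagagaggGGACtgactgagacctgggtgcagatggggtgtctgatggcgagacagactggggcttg
Gm48226, chr12:78226306-78226406, minus strand: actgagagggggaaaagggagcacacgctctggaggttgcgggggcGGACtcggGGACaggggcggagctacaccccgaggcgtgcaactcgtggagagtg
Gm7292, chr6:117716793-117716893, plus strand: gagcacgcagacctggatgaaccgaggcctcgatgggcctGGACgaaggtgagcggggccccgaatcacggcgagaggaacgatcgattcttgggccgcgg
2900097C17Rik, chr2:156392178-156392278, minus strand: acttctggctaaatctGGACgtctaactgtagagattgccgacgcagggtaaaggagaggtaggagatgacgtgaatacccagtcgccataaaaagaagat
2610507I01Rik, chr11:59200032-59200132, minus strand: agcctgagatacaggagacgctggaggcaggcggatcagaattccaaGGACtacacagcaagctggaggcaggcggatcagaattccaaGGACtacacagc
2010320M18Rik, chr8:70777334-70777434, plus strand: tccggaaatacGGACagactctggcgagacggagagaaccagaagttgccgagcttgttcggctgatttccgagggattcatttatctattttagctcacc
A630052C17Rik, chr11:29172471-29172571, minus strand: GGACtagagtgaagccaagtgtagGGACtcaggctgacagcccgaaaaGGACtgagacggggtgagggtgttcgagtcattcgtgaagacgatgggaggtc
2610306M01Rik, chr6:86848845-86848945, minus strand: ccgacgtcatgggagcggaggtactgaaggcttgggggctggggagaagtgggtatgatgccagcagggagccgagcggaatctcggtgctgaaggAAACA
5830448L01Rik, chr14:34673529-34673629, minus strand: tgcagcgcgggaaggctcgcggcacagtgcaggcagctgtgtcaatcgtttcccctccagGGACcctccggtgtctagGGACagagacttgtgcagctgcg
Gm42047, chr8:121836817-121836917, plus strand: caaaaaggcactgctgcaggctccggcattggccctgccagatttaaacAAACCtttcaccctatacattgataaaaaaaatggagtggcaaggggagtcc
Map2k3os, chr11:60921345-60921445, minus strand: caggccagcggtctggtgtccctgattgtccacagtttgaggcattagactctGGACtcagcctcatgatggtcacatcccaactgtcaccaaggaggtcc
A430046D13Rik, chr10:128502581-128502681, plus strand: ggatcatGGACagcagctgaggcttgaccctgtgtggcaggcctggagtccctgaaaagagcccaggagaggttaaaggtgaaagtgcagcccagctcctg

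Of these 12 windows, 10 held GGAC on the strand of the gene. Among all lncRNA summits of replicate 1 the share was 53.03%, and over all positions of their transcripts 33.4%. In A630052C17Rik the adenosine of a GGAC was the summit base itself, and in 2610507I01Rik it lay 1 nt before the summit, in a stretch that occurs again within the same window. The windows of 2610306M01Rik and Gm42047 held no GGAC. The next 5 windows are from lncRNAs with a known role, namely Malat1, Neat1 and the strongest peak pair of each other list given further on.
Malat1, chr19:5802428-5802528, minus strand: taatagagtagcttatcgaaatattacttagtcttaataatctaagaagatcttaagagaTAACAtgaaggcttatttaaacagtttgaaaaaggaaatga
Neat1, chr19:5843914-5844014, minus strand: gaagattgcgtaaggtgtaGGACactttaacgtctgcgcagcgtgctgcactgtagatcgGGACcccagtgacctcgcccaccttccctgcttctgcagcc
Snhg20, chr11:117076815-117076915, plus strand: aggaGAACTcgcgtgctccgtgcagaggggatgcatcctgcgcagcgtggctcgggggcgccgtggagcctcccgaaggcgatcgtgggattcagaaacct
Dleu2, chr14:61603496-61603596, minus strand: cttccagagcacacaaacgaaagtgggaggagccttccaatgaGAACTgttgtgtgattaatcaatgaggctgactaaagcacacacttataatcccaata
Lockd, chr6:134951286-134951386, plus strand: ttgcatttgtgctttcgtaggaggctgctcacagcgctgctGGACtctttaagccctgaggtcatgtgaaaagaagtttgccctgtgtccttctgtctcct

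Neat1 held GGAC in its window, and so did Lockd, whose window starts in the intron before exon 2 while the motif is in the exon. Malat1, Snhg20 and Dleu2 held no GGAC there. A DRACH site was present in all 17 windows, but also in 87.0% of windows centred on every position of the transcripts with a summit in replicate 1.

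Across all summits, GGAC stood on the strand of the lncRNA more often than elsewhere on the same transcripts. In replicate 1, 201 of 379 summits (53.03%, exact interval 47.9 to 58.1) had GGAC within 50 nt on the spliced transcript, and in replicate 2 it was 186 of 347 (53.6%, 48.2 to 58.9), a mean of 53.3% ± 0.402 (SD, n = 2). On the opposite strand of the same windows the share was 26.1% and 23.9%. Over windows of the same size centred on every position of the same transcripts it was 33.4% and 33.9%, so summits exceeded these by 1.59 and 1.58 times. The gene strand exceeded both by far more than the replicates differed from each other.

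Summits in exons of protein-coding genes had GGAC at a like rate, 55.9% in each replicate, which is 1.65 and 1.66 times all positions of their transcripts. The exact intervals of the classes overlapped in both replicates. DRACH, a looser pattern, was within 50 nt of 95.8% and 96.5% of lncRNA summits, against 77.3% and 77.2% on the opposite strand and 87.0% and 87.4% of all positions. A match describes the letters in the window and is not by itself a methylated site.

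The motif profile of the lncRNA summits was centred on the summit in both replicates. In bins of 20 nt, GGAC peaked at 17.99% of summits just upstream of the summit in replicate 1 and at 18.3% just downstream in replicate 2, and on the opposite strand it was 7.14% and 5.52% in the same bins. Shared and unshared peaks were also split. In replicate 1, 55.5% of the shared peaks and 45.8% of those found in that replicate only had GGAC (exact intervals 49.5 to 61.4 and 35.6 to 56.3), and in replicate 2 these were 54.0% and 52.2%. The intervals overlapped in both replicates, and the difference between shared and unshared peaks was not tested.

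**Figure D1:**
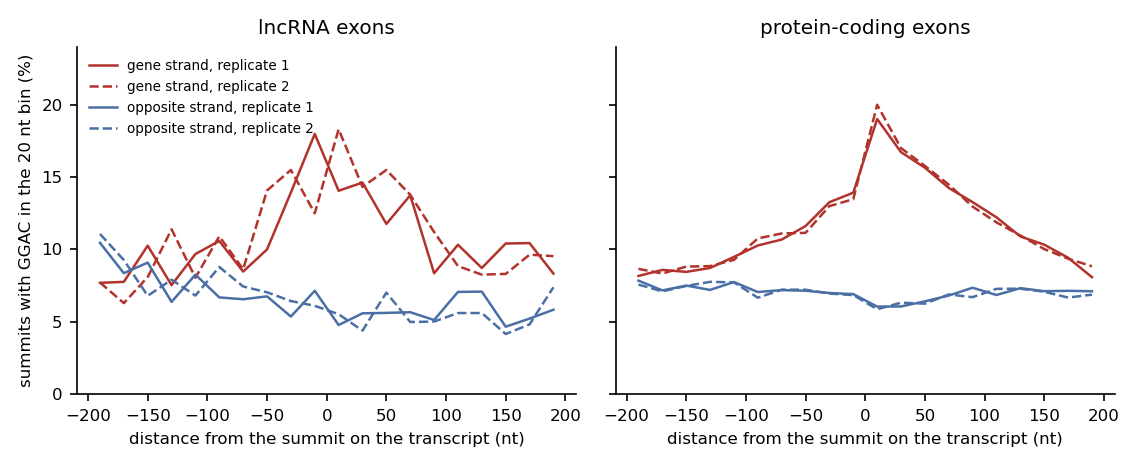
Share of summits (%) with GGAC in each bin of 20 nt, against the distance from the summit on the spliced transcript, for lncRNA exons (left) and protein-coding exons (right). Red lines are the gene strand, blue lines the opposite strand, solid lines replicate 1 and dashed lines replicate 2. The gene strand rises to 17.99% and 18.3% beside the lncRNA summits while the opposite strand is at 7.14% and 5.52% in the same bins.

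LincRNA genes gave the largest number of summits. There were 171 in 135 genes in replicate 1 and 143 in 117 genes in replicate 2. Antisense genes gave 91 and 99, genes of the type processed_transcript 66 and 62, lncRNAs of bidirectional promoters 44 and 37, and sense_intronic genes 7 and 6. None of the 29 sense_overlapping genes held a summit. Bidirectional promoter lncRNAs are a small class of 190 annotated genes, of which 36 and 32 held a summit, while 5209 lincRNA genes are annotated. The median fold enrichment (the ratio, from MACS2, of IP signal to local background at the summit) of bidirectional promoter lncRNAs was 6.15 in replicate 1 and 7.16 in replicate 2, that of lincRNAs 5.46 and 5.97.

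Most lncRNA genes with a peak had 1 summit. This was so for 257 genes (82.4%) in replicate 1 and 235 (82.5%) in replicate 2, against 60.7% and 61.3% of protein-coding genes with a peak. A summit was found in both replicates in 234 lncRNA genes, in replicate 1 only in 78 and in replicate 2 only in 51. These 234 are 2.48% of the 9421 autosomal lncRNA genes annotated, where 30.01% of protein-coding genes had a summit in both by the same rule. Of all autosomal genes of the basic set, 14.2% had an exonic summit in both by a looser rule. There a summit in exons of several genes counted for each of them. With overlapping genes allowed, 376 lncRNA genes had a summit in both. Of the genes with a summit in either replicate, 64.5% of lncRNA genes and 83.4% of protein-coding genes had one in both.

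The share rose with transcript length. Of lncRNA genes whose longest transcript is under 500 nt, 2 of 1707 (0.117%, 0.0142 to 0.423) had a summit in both replicates. Of those of 1000 to under 2000 nt, 81 of 2359 (3.43%, 2.74 to 4.25) had one. Of those of 4000 nt or more, 30 of 300 (10%, 6.85 to 14.0) had one. In the same ranges protein-coding genes were at 2.77%, 18.2% and 45.0%, so lncRNA genes were lower at matched transcript length, with intervals that did not overlap. The lists hold no expression level, and the part of expression in this difference was not tested.

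**Figure D2:**
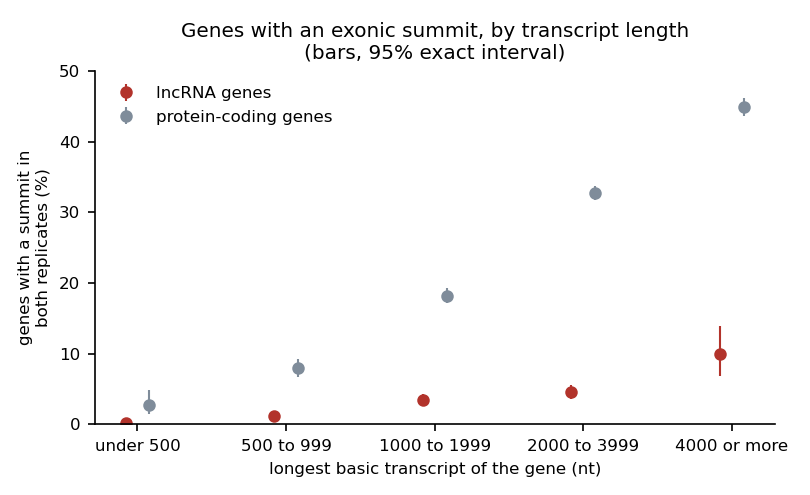
Share of annotated autosomal genes (%) with an exonic summit in both replicates, by the length of their longest basic transcript, for lncRNA genes (red) and protein-coding genes (grey). Points are shares and bars 95% exact intervals; lncRNA genes lie below protein-coding genes in each of the ranges, at 10% against 45.0% from 4000 nt upward.

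Lists of described lncRNAs were counted next, beside all 9421 lncRNA genes, of which 3.85% had a summit in either replicate and 2.48% in both. Of 52 genes that 4 lists hold in the annotation, 11 (21.2%) had one in both replicates. In the list named nuclear or chromatin lncRNAs, which also holds the mainly cytoplasmic Norad, 9 of 14 genes had a summit in at least 1 replicate and 7 in both, the most of any list. These 4 lists were drawn up by name and function, with earlier results of these data known, so their counts are a description only. Their longest transcripts differ in length, with medians of 6790 nt for nuclear or chromatin lncRNAs and 692 nt for snoRNA host genes. The medians were 2858 nt for microRNA host genes and 1839 nt for lncRNAs described in blood cells or the p53 response. Of all lncRNA genes of 4000 nt or more, 10% had a summit in both replicates. Length moves with the number of peaks here, and its part in the difference between the lists was not tested.

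Tug1, a broadly expressed lncRNA, carried the most summits of any gene in the class. It had 3 in replicate 1 and 5 in replicate 2 on a transcript of 6719 nt, and fold enrichment was 3.65, 3.09 and 3.87 in replicate 1, read from the 5′ end. In replicate 2 it was 3.87, 3.18, 2.32, 3.56 and 3.26. 3 peaks overlapped one to one between the replicates. Their summits were 1317, 5938 and 6495 nt from the 5′ end in replicate 1 and 1448, 5255 and 6495 nt in replicate 2, the middle one in a peak of 2254 and 2257 bp. The peaks at 3440 and 3723 nt were found in replicate 2 only.

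Neat1, the scaffold of the nuclear bodies called paraspeckles, had 2 summits in each replicate. All lay near the 5′ end of a transcript of 20771 nt. The stronger was 1515 nt from the 5′ end in replicate 1 and 1523 nt in replicate 2, with fold enrichment of 5.60 and 5.63. The weaker was at 109 and 100 nt, with 2.73 and 3.17.

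Malat1, which lies in nuclear speckles, also had 2 summits in each replicate, in the 5′ part of its 6983 nt. Fold enrichment was 3.90 and 3.92 for the summits at 195 and 111 nt, and 1.88 and 2.07 for those at 1389 and 1298 nt. The latter stood on a local background equal to 98 and 80.2 control reads. Within replicate 1 its fold was the second lowest of the class, after 1.77 in Gm42047. No summit lay further towards the 3′ end of either transcript. Whether reads covered the rest of these transcripts is not known from the lists.

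2900097C17Rik is the mouse Norad gene, a mainly cytoplasmic lncRNA that binds Pumilio proteins. It had 1 summit per replicate, 752 and 758 nt from the 5′ end, with fold enrichment of 5.59 and 4.79. These peaks rested on 156 and 160 IP reads at the summit, with a −log10 q of 59.4 and 49.6.

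Imprinted lncRNAs made up much of the rest of the list. Kcnq1ot1, which silences its neighbours on the paternal chromosome, had 1 summit in replicate 1 and 3 in replicate 2. The summit found in both lay 37897 and 37938 nt from the 5′ end, with 8.21-fold enrichment in each. Those found in replicate 2 only were at 70 nt (5.72-fold) and 37446 nt (9.93-fold). Snhg14, the snoRNA host of the Prader-Willi region, had 2 in each replicate. Its peak in exon 5 had 12.9-fold enrichment in replicate 1 and 5.08-fold in replicate 2, on 30 and 31 IP reads. The local background at this place equalled 1.6 and 5 control reads.

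Peg13 had 2 summits in replicate 1 (9.71-fold and 7.93-fold) that lay under 1 broad peak of 3415 bp in replicate 2 (9.77-fold). H19 had 1 summit in replicate 1 only, in its first exon, with 4.19-fold enrichment on 97 IP reads and a −log10 q of 27.7. Airn had 1 in replicate 2 only, with 6.87-fold on 9 IP reads. Meg3 had a summit only where an exon of another gene overlaps (1 in replicate 2), and Miat, Nespas, Rian and Mirg had none.

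**Figure D3:**
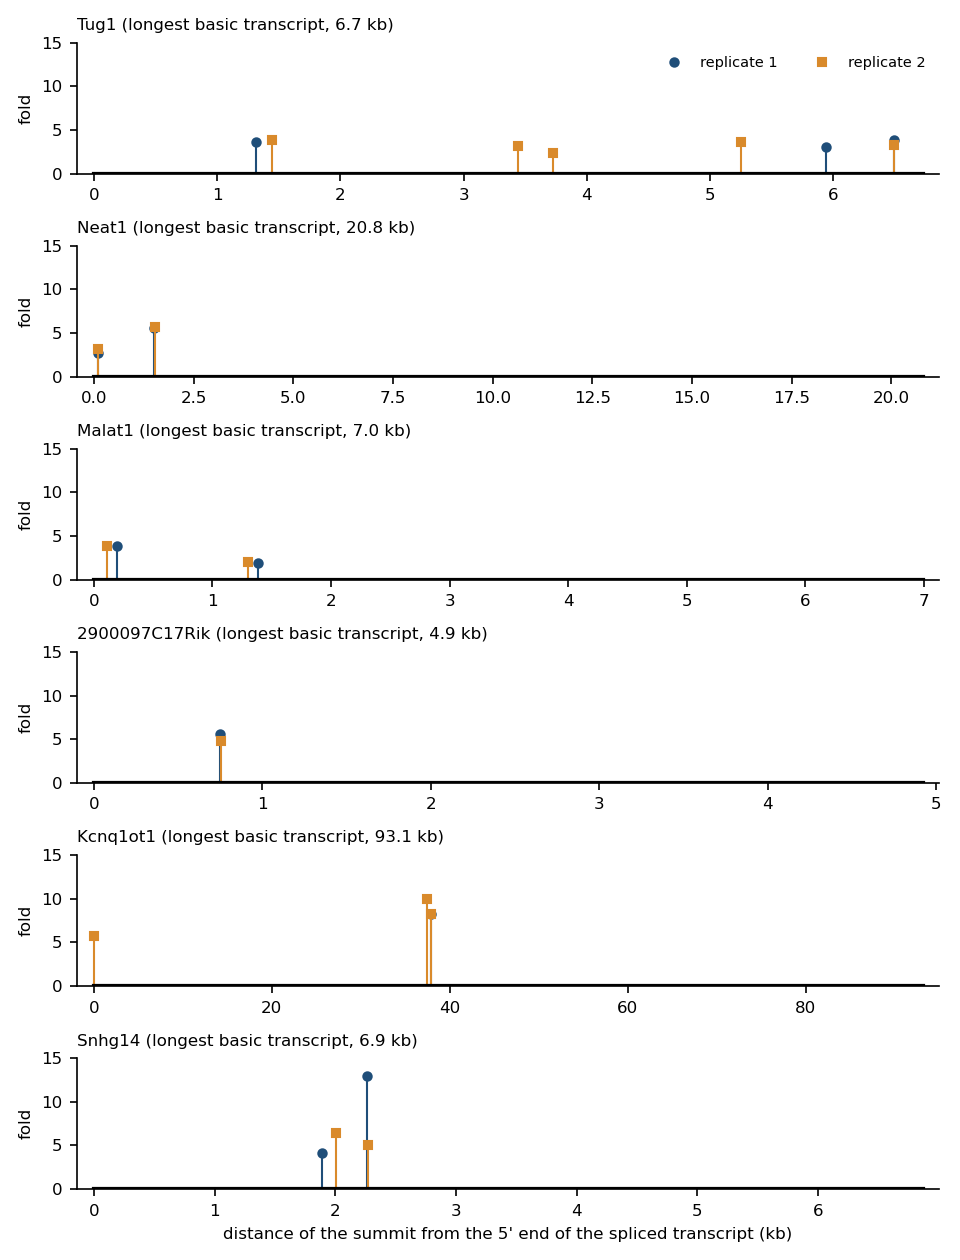
Fold enrichment of each summit against its distance from the 5′ end of the spliced transcript (kb) in Tug1, Neat1, Malat1, 2900097C17Rik (Norad), Kcnq1ot1 and Snhg14; the black bar is the longest basic transcript. Blue circles are replicate 1 and orange squares replicate 2. Summits of Neat1 and Malat1 lie in the 5′ part, and those of Tug1 are spread along the transcript.

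Of 16 snoRNA host genes, whose introns release small nucleolar RNAs, 2 had a summit in either replicate, where 3.85% of all lncRNA genes had one. Snhg14, described above, is counted in the nuclear or chromatin list. Gas5, Snhg1, Zfas1 and Dancr were among the 14 without a summit. Snhg20 had 1 in each replicate, 64 and 83 nt from its 5′ end, with fold enrichment of 6.35 and 9.25. Snhg5 had 1 in replicate 1 only (2.85-fold).

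Of 9 microRNA host genes, 2 had a summit in either replicate, against the same 3.85%, and Mir17hg and Mir155hg were among the 7 without. Mir22hg had 1 in each replicate (5.05-fold and 4.14-fold, on 12 IP reads each), and so did Dleu2, which hosts a microRNA cluster lost in leukaemia (4.51-fold and 6.51-fold). The other summits within Dleu2 lay outside its basic exons or where another gene overlaps. Mir142hg, expressed in blood cells, had 1 summit per replicate inside the gene but outside its basic exons.

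Among 13 lncRNAs described in blood cells or the p53 response, 3 had a summit in either replicate, against 3.85% of all lncRNA genes. Lncpint, Hotairm1 and Trp53cor1 were among the 10 without. Lockd, transcribed next to Cdkn1b and studied in erythroid cells, had 1 in each replicate, at 3.395-fold and 3.65-fold, with 124 and 118 IP reads. Dubr had 2 in replicate 1 only (7.09-fold and 5.34-fold, on 9 IP reads each). Gm15915 had 1 in replicate 1 (3.01-fold), and the summit of the peak over it in replicate 2 (2.93-fold) lay outside the exons counted. Pvt1 had a summit only in an exon shared with another gene, in replicate 2. The names Snhg4, Snhg7, Snhg16, Mirlet7bhg, Morrbid and Chaserr were not found among the lncRNA genes of the annotation.

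Redrum, an lncRNA known from red cell formation, was looked at after its values had been seen. It had 3 summits in replicate 1 and 1 in replicate 2. The peak in the first exon of replicate 1 (7.87-fold, −log10 q 29.7, 55 IP reads) had no peak of replicate 2 over it. Of the peaks in the last exon, that at 662 nt (2.09-fold) was found in replicate 1 only, and the other in both, with 2.54-fold and 2.31-fold enrichment.

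The strongest pairs of peaks were in genes that are little described. C130036L24Rik led, with a −log10 q of 61.1 and 58.5 and 12.2-fold and 13.2-fold enrichment, and its summits fell on the same base in both replicates. Gm48226, a bidirectional promoter lncRNA within 1 kb of a protein-coding start on the other strand, had 9.24-fold and 25.5-fold. Gm7292 had 6.20-fold and 6.82-fold, 2610507I01Rik 5.74-fold and 5.58-fold and 2010320M18Rik 4.92-fold and 6.00-fold. Apart from Gm48226, each of these was within 2-fold between the replicates.

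A630052C17Rik had 7.14-fold and 13.7-fold enrichment, 2610306M01Rik 8.01-fold and 14.3-fold and A430046D13Rik 6.10-fold and 12.8-fold. All were higher in replicate 2. 5830448L01Rik had 14.0-fold and 11.3-fold, Map2k3os 10.6-fold and 9.11-fold and Gm42047 4.50-fold and 4.03-fold, all higher in replicate 1.

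The gene type was checked against RefSeq, since a gene called noncoding in one annotation can be coding in another. At 60.9% of the summits of replicate 1 and 59.7% of replicate 2 RefSeq had an exon of a noncoding RNA on the same strand, and at 24.5% and 24.2% it had no exon. At 4.75% and 5.19% its exon was on the opposite strand only. At 37 summits (9.76%, 6.97 to 13.2) and 38 summits (11.0%, 7.87 to 14.7) it had an exon of an mRNA on the same strand. These 75 summits belonged to 32 genes, of which 12 had a summit in a curated coding sequence. Here the annotation goes against the label, and such genes are called by their M21 type only.

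Zswim6 and Trerf1 are such genes: both symbols are those of known protein-coding genes, and M21 files them as processed_transcript. The Zswim6 peak had the highest fold of the class in replicate 1 (22.9, on 46 IP reads and 1.2 control reads), against 17.8 and 9.11 for the 2 peaks that cover the place in replicate 2. Trerf1 had a peak of 16.4-fold in replicate 1 and 10.004-fold in replicate 2, in its last exon. Without summits in RefSeq mRNA exons, 212 genes had a summit in both replicates.

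Among the 13 genes with at least 5 summits over both lists, 6 had a summit in such an exon. After Tug1 came 4 genes with 6 summits, namely B130055M24Rik, B230354K17Rik, Gm20939 and Gm37494. The other 8 had 5 summits each and tied for the last of 12 places. They were 2810454H06Rik, 8430429K09Rik, A330094K24Rik, D730005E14Rik, Gm10451, Gm42047, Gm46430 and Trerf1.

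B230354K17Rik had 3 summits in each replicate, which paired one to one. From the 5′ end, fold enrichment was 6.04, 6.26 and 5.82 in replicate 1 and 10.5, 3.61 and 6.76 in replicate 2. B130055M24Rik likewise had 3 in each, with 4.36, 7.59 and 3.51 in replicate 1 and 6.71, 7.38 and 5.72 in replicate 2. In the former the middle peak was the highest in replicate 1 and the lowest in replicate 2, and in the latter it was the highest in both.

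Gm37494 had 3 summits in each replicate, of 4.76-fold to 7.30-fold, all in what RefSeq gives as exons of an mRNA. Gm20939 had 3 in each as well, of 4.42-fold to 7.95-fold, also in RefSeq mRNA exons, and between 53.5% and 86.6% of each of its peaks was repeat-masked sequence. Gm42047 was masked at 66.7% to 78.2%. How reads that fit several places were treated is not given in the sources used here.

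Repeats were more common in lncRNA exon peaks than in protein-coding ones. On average 16.2% of the bases of a peak were masked in replicate 1 and 15.6% in replicate 2, against 7.35% and 7.46%. The medians were 8.59% and 8.49%, against 4.86% and 4.90%. Peaks masked over 50% or more of their length were 9.23% and 8.07% of the class, against 0.982% and 1.08% of protein-coding exon peaks. The masked share of whole exons was not set beside these values.

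Last exons held the most summits and also the most sequence. The median transcript with a summit had 2 exons and 1861 nt in replicate 1 and 1898 nt in replicate 2. In replicate 1, 57.0% of summits (51.8 to 62.0) lay in the last of several exons, which made up 52.99% of the length of the same transcripts. In replicate 2 these were 57.3% (52.0 to 62.6) and 51.3%. The length share lay inside the interval in replicate 1 and just below it in replicate 2. Single-exon transcripts held 21.1% and 24.5%. First exons held 14.5% (11.1 to 18.5) and 11.0% (7.87 to 14.7), beside 17.6% and 16.4% of the length, which is above the interval in replicate 2 only.

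Long exons, taken as 400 nt or more, contained 84.7% of summits (80.7 to 88.2) in replicate 1 and 87.0% (83.0 to 90.4) in replicate 2. They made up 81.4% and 84.5% of the transcripts, which lies within these intervals. In protein-coding genes the corresponding shares were 86.8% and 86.9% of summits against 68.0% and 68.3% of length. So the share in long exons was alike in the classes, and its excess over length was outside the interval in protein-coding exons only. The difference between the classes in that excess was not tested.

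Summits were sparse at the 3′ end. With each transcript cut into 10 equal parts, the last part held 13 of 379 summits (3.43%) in replicate 1 and 14 of 347 (4.03%) in replicate 2. The second part held 15.3% and 14.1%, the highest share in each replicate. Within 200 nt of the annotated 3′ end lay 5.28% and 6.92% of summits, and within 200 nt of the 5′ end 14.2% and 14.1%. Either stretch makes up on average 13.6% and 13.03% of these transcripts. Protein-coding exon summits were sparse at the 3′ end as well, with 4.07% and 4.14% in the last part. Of these, 1.15% and 1.51% lay within 200 nt of the 3′ end, a stretch of 6.42% and 6.39% of their transcripts.

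Neighbouring genes were looked up because a peak list without strand cannot tell an lncRNA from a gene that runs across it. The summit lay in the body of no other gene for 71.2% and 69.5% of the class. It lay in the body of a gene on the opposite strand for 20.1% and 20.5%, and on the same strand for 9.23% and 10.1%. Within 1 kb of the start of a protein-coding gene on the opposite strand were 21.9% (17.8 to 26.4) and 23.9% (19.5 to 28.8). Downstream of a protein-coding gene of the same strand, by at most 5 kb, were 2.64% and 2.31%.

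GGAC on the gene strand was found at 54.4% and 56.8% of summits outside any other gene, and at 47.4% and 47.9% of those inside a gene on the opposite strand. Near a protein-coding start on the opposite strand it was 50.6% and 59.0%. These subsets were not tested against each other.

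LncRNA exon peaks rested on few reads. The median peak had 25 IP reads at its summit in replicate 1 and 27 in replicate 2, against 71 and 69 in protein-coding exons. Its background equalled 4.0 and 3 control reads, against 18.2 and 14. IP reads under 30 were behind 58.0% and 53.03% of the class, against 18.8% and 18.1%. Both read numbers were solved from the values the authors deposited. The number of control reads is the local background of MACS2 written in reads. It can be a fraction and is not a count of reads at the summit. Library totals are not known from the lists.

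Fold enrichment was higher in lncRNA exons when all peaks were pooled. Its median was 5.57 (quartiles 4.15 and 7.22) in replicate 1 and 6.10 (4.77 and 7.95) in replicate 2, a mean of 5.84 ± 0.372 (SD, n = 2). In protein-coding exons it was 4.12 and 4.30 (4.21 ± 0.129), in pseudogene exons 4.70 and 5.26, and in peaks outside exons 5.67 and 5.97. The difference from protein-coding exons was larger than the spread between replicates.

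At matched control reads this order held in some bins only. For peaks with under 2 control reads, the median fold was 7.09 in both classes in replicate 1, and 7.17 in lncRNA against 8.24 in protein-coding exons in replicate 2. With 2 to under 5 control reads it was 5.82 against 6.55 and 6.398 against 7.01. With 5 to under 10 it was 5.22 against 5.76 and 5.34 against 5.69. With 10 to under 20 it was 4.88 against 4.62 and 4.08 against 4.48, so the replicates differed. With 20 or more it was 3.01 against 2.99 and 3.06 against 2.83, higher in lncRNA exons in both replicates. The classes differed in how many peaks had few control reads, with solved values within 0.01 of a limit counted as at it: 27.4% and 32.6% of lncRNA exon peaks had under 2 control reads, against 7.72% and 9.58%.

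**Figure D4:**
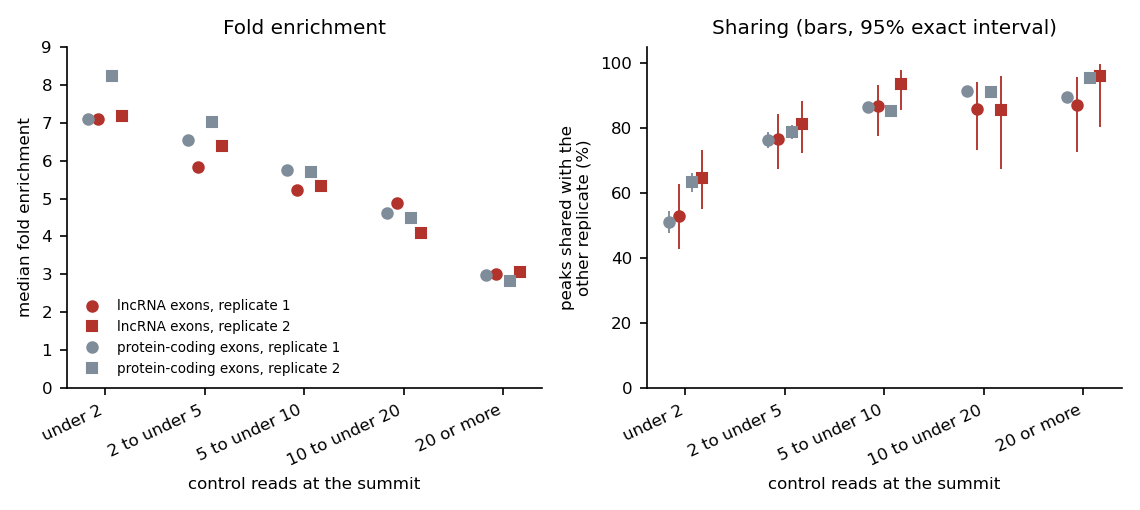
Median fold enrichment (left) and share of peaks that overlap a peak of the other replicate (right, with 95% exact intervals) by the local background at the summit, written as control reads. Red is lncRNA exons and grey protein-coding exons. Circles are replicate 1 and squares replicate 2. Both measures follow the control reads in both classes, and the lncRNA intervals for sharing include the protein-coding share except with 5 to under 10 control reads in replicate 2, where the interval starts at 85.7% and the share is 85.3%.

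By overlap of at least 1 bp, 283 of 379 peaks of replicate 1 (74.7%, 70.0 to 79.0) were shared with replicate 2. In the other direction 278 of 347 (80.1%, 75.5 to 84.2) were shared, a mean of 77.4% ± 3.85 (SD, n = 2). Of all autosomal peaks, 80.8% of replicate 1 and 84.2% of replicate 2 were shared. In protein-coding exons it was 85.1% and 87.6%, with intervals above those of the lncRNA class in both replicates. Of the shared lncRNA peaks, 270 of 283 and 267 of 278 had a partner whose summit was counted in the same gene.

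Sharing followed the strength of the peak. In the lowest quartile of all autosomal peaks by −log10 q, 52.1% of lncRNA exon peaks of replicate 1 and 62.2% of replicate 2 were shared, and in the highest quartile 58 of 60 and 54 of 54. Protein-coding exon peaks went from 60.5% and 69.9% to 98.3% and 98.4%. The lowest quartile held 36.9% and 34.3% of the lncRNA class, against 21.6% and 22.3% of the protein-coding one. Weighted to the quartiles of the lncRNA class, the protein-coding share was 78.8% and 83.7%.

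By control reads, the lncRNA share was the higher one in both replicates in each bin under 10. It was the lower one in both with 10 to under 20, and the replicates differed with 20 or more. With under 2 control reads 52.9% (42.8 to 62.8) and 64.6% (55.0 to 73.4) of lncRNA exon peaks were shared, beside 51.2% and 63.4% in protein-coding exons. With 2 to under 5 these were 76.7% and 81.4%, beside 76.4% and 78.8%. With 5 to under 10 it was 86.7% (77.5 to 93.2) and 93.6% (85.7 to 97.9), beside 86.5% and 85.3%. With 10 to under 20 it was 86.0% (73.3 to 94.2) and 85.7% (67.3 to 96.0), beside 91.5% and 91.3%. With 20 or more it was 87.2% and 96.2%, beside 89.5% and 95.4%. The lncRNA interval included the protein-coding share except with 5 to under 10 in replicate 2.

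Unshared lncRNA peaks were narrower and weaker than shared ones. Their median width was 229 and 247 bp against 412 and 392 bp, and they had 13.5 and 14 IP reads against 30 and 32. A few had many reads. Besides H19 and Redrum, the strongest of them were in Gm10076 (2.93-fold, −log10 q 24.1, 140 IP reads) and Brip1os (6.47-fold, −log10 q 20.8, 45 IP reads), both in replicate 1. They were named after their values had been seen.

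The fold of a peak was less alike between replicates than in protein-coding exons when all pairs were pooled. The pairs were not matched by control reads, which were fewer in the lncRNA class. Over 260 pairs of peaks that overlap one to one, the log2 ratio of replicate 2 to replicate 1 had a median of 0.06 and an SD of 0.58. The SD was 0.45 over 8636 protein-coding pairs. Within 2-fold lay 89.6% of the lncRNA pairs and 95.8% of the protein-coding ones. Spearman's rho was 0.540 and 0.823, a description across peaks that share their libraries, with no p-value. Summits of a pair were 30 nt apart in the median, against 16 nt.

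In the 27 lncRNA pairs more than 2-fold apart, the control reads differed more than the IP reads. The larger count was 3.12 times the smaller in the median for control reads and 1.19 times for IP reads. In pairs within 2-fold these were 1.33 and 1.11. Gm48226 had 97 and 106 IP reads and a background of 11 and 3 control reads. Gm9888, the pair with the highest fold in replicate 2, had 34 and 44 IP reads and a background of 4.0 and 0.46 control reads. Its fold enrichment was 7.79 and 29.4. At its summit in replicate 1, the RefSeq exon was that of an mRNA on the opposite strand. Gm9888 was named after its values had been seen.

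**Figure D5:**
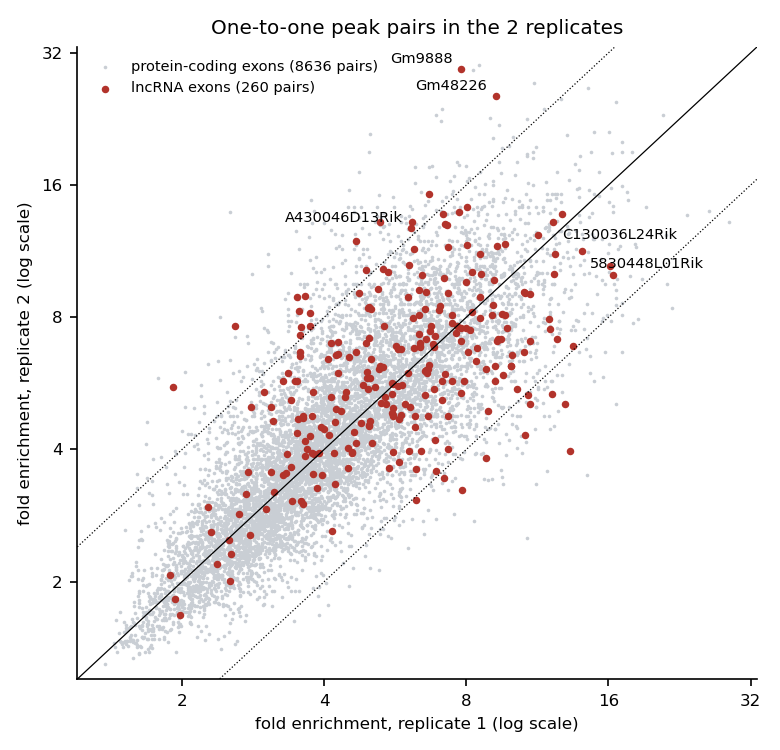
Fold enrichment in replicate 1 (x, log scale) against replicate 2 (y, log scale) of peaks that overlap one to one, for lncRNA exons (red, 260 pairs) and protein-coding exons (grey, 8636 pairs). The solid line marks equal values and dotted lines a 2-fold difference; Gm48226 and Gm9888 stand apart with 25.5-fold and 29.4-fold in replicate 2.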

How the data were processed

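m6A IP replicates 1 and 2 were analysed from 1 peak list each. Input read data were not used here. Per the submitters' processing notes and the methods, the authors aligned reads to GRCm38 (labelled mm10) with HISAT2 and called peaks for each replicate with MACS2 (version 2.1.1.20160309, nomodel). The settings for reads that fit several places, the q threshold and the control library are not given in the sources used here. The smallest −log10 q in the deposited lists was 1.31 and 1.30. The fold enrichment (a ratio), the −log10 p-value, the −log10 q-value, the score and the summit offset are the authors' values as deposited by MACS2. Each fold enrichment is the IP signal over the local background at the summit, with 1 added to each. The score was not analysed further.

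Summits were placed in exons of the GENCODE M21 basic set on GRCm38, in which the first base is 1. For a summit in several transcripts the longest was taken. The 6 gene types were those of the rule given in the report. Neither the peak lists nor the assignment use strand, so a summit counts for the annotated gene. Windows for GGAC and DRACH were searched on the spliced transcript, 50 nt on each side, on the gene strand and its complement. Peaks of the replicates counted as shared from an overlap of 1 bp. IP and control reads were solved from fold enrichment and −log10 p under the MACS2 formulas. Control reads are the local background divided by a fitted scale (background per control read), so they need not be whole. Whole IP reads were found for 100% of peaks of each list (within 0.001 in −log10 p). On 1967 simulated peaks 100% were recovered, with the signal per IP read given and backgrounds at whole control reads only. The simulation therefore does not test the fitted scales or backgrounds that are fractions.

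Shares have exact Clopper-Pearson 95% intervals. PCR reads without molecular identifiers are not independent molecules, so intervals cover counting error only. No test between groups was possible. Genes were named by 3 rules: the 12 genes with the most summits (13 with ties), the 12 strongest one-to-one pairs by the lower −log10 q, and every gene of 4 lists with a summit. Members, lists and rules were chosen with earlier results of these data known. Alternatives changed the q and fold minimums, the treatment of overlapping genes, the annotation set, the overlap that counts as shared, the motif window and the transcript chosen. An alternative without RefSeq mRNA exons was added after seeing the data. Python 3.11.15 with numpy 2.4.6, scipy 1.17.1, pandas 2.3.3 and matplotlib 3.10.9 were used.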

Additional observations from a re-analysis of the deposited data

Results flagged for a closer look

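LncRNA genes on chromosome X lie outside the rule for autosomes, and their peaks were counted apart. There were 12 summits in replicate 1 and 8 in replicate 2 in exons of exactly 1 lncRNA gene on X, and 0 on Y in either list. Xist, the RNA that coats the inactive X chromosome, had 3 summits in each replicate, with 2.86-fold, 2.45-fold and 1.99-fold enrichment in replicate 1 and 2.01-fold, 2.14-fold and 1.66-fold at the same places in replicate 2. Its neighbours Jpx and Ftx had 2 and 3 summits in replicate 1, and 1 and 2 in replicate 2. The highest fold was 11.8, in Ftx in replicate 1, and 6.76 at the same place in replicate 2. Without control samples among the peak lists, these counts have no background of their own.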

How the results depend on the processing

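No paired analysis was possible because the IP and input samples that share the numbers 1 and 2 were not both analysed, and 1 group of 2 samples is left. Of 53 values under other settings with both replicates kept, 29 stayed within the replicate SD (or, for counts of genes and summits, within 1.5 times) and 24 moved. When either replicate was left out, the number of summits was 347 to 379, the median fold 5.57 to 6.10, the GGAC share 53.03% to 53.6%, the DRACH share 95.8% to 96.5%, the share in the last exon 57.0% to 57.3% and that in exons of at least 400 nt 84.7% to 87.0%. With 2 replicates these ranges only restate the replicates' own values. Sharing and the number of genes found in both need both lists and have no such value.

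Allowing exons of overlapping genes moved the most results, though not each by the most. It gave 590.5 summits per replicate on average in place of 363 and 376 genes in place of 234, a median fold of 5.45, GGAC at 48.3%, DRACH at 88.7%, 51.2% in the last exon and 80.9% in long exons. A minimum −log10 q of 5 gave a median fold of 6.28, GGAC at 54.9% and 58.2% in the last exon. A minimum fold of 4 gave a shared percentage of 67.9%, a median fold of 6.48, GGAC at 54.1% and 55.4% in the last exon. Sharing was 67.7% with 50% reciprocal overlap and 58.8% with summits within 100 bp. Windows of 25 and 100 nt gave GGAC at 33.1% and 71.8% and DRACH at 79.5% and 99.7%. The comprehensive annotation gave 55.5% in the last exon, and leaving out RefSeq mRNA exons gave 56.5%. The shortest transcript gave 81.6% in exons of at least 400 nt, and exons of at least 200 nt held 97.1%. The cause of the moves by the annotation and transcript choices was not tested.

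The effect of depth was not measured, since library totals are not known from the lists. The SD between 2 libraries is itself poorly known, a peak list does not tell a gene without the mark from one without reads, and a summit is not a methylated base.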
